A study of Sorghum bicolor with 14 samples.

Results

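The loci described here lie on chromosomes 5 and 8 of sorghum (Sorghum bicolor) and were detected in the middle stem internode of the grain variety M35-1. A locus was included when its row carried exactly 1 annotation ID, its printed range lay on either chromosome, and it reached 1 FPKM or more (fragments mapped to a transcript, scaled to its length and to the size of the library) in at least 1 column of its table. Over development, 1657 of the 16939 loci of this kind lay on these chromosomes, 804 on chromosome 5 and 853 on chromosome 8. Over drought it was 1557 of 16082, with 737 on chromosome 5 and 820 on chromosome 8. Over both tables this gave 1760 different IDs of 17908. The same kind of loci on the other 8 chromosomes, 15282 over development and 14525 over drought, served for comparison.

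Libraries came from 7 groups of 2, all of the same variety. Plants sown in a fertilised field bed were taken when the panicle began to form (floral initiation), at booting, and with the grain at its milky stage or at soft dough. Plants grown 1 to a pot were deprived of water from the flag leaf stage and taken once they reached booting, at a soil moisture of about 13% (D1), 7% (D2) or 2% (D3) on the meter. Each group has a single FPKM column that both of its libraries name, so the columns are the authors' pooled values. No watered pot group was analysed here. No difference has a replicate check, and no SD or p-value is given. Loci are not replicates of a condition. The other 8 chromosomes give the yardstick, and no difference between chromosomes was tested.

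Chromosomes 5 and 8 are known as a pair of related chromosomes left by an ancient whole-genome duplication shared by the grasses, and they correspond to such a pair in rice. The ends of this pair have kept exchanging sequence by gene conversion long after the duplication. Chromosome 5 in particular is known for many clustered genes of the NB-LRR class, intracellular receptors that recognise pathogens. Such receptor genes often stand in tandem arrays, and many are weakly transcribed in the absence of infection. The files give IDs without gene names. Of 31851 single IDs, 0 were found among the gene IDs, locus tags, symbols or synonyms of the RefSeq table, so no ID below is given a function. For the same reason the labelled tissue could not be checked against marker genes, and no list of pathway genes could be counted. No sequences were used here. In a whole internode, fewer cells of a type and less RNA per cell cannot be told apart.

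A smaller share of annotated loci was detected on chromosomes 5 and 8 than on any of the other 8 chromosomes, in both tables. Chromosome 5 had 804 of its 2235 single-ID loci at 1 FPKM or more in the development table (36.0%, Wilson 95% interval 34.0% to 38.0%, which covers the counting of loci only). Chromosome 8 had 853 of 1848 (46.2%, 43.9% to 48.4%). The share over all 10 chromosomes was 53.9%, and the other 8 ran from 50.9% on chromosome 7 to 59.2% on chromosome 1. The drought table gave the same order, with 32.8% (30.9% to 34.8%) on chromosome 5 and 44.1% (41.8% to 46.3%) on chromosome 8, against 51.2% over all 10 and 47.5% to 56.9% on the other 8. Since 1 FPKM is the threshold by which members were chosen, these shares describe the choice. Just outside it in the development table stood Sobic.008G159800 at 0.997 FPKM and Sobic.005G078300 at 0.999, and just inside it Sobic.005G230200 and Sobic.008G175700, which were at 1.003 and 1.008. In the drought table the nearest were Sobic.008G037900 at 0.995 and Sobic.005G221300 at 0.996, and then Sobic.008G150100 at 1.0006 and Sobic.008G009000 at 1.001.

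**Figure D1:**
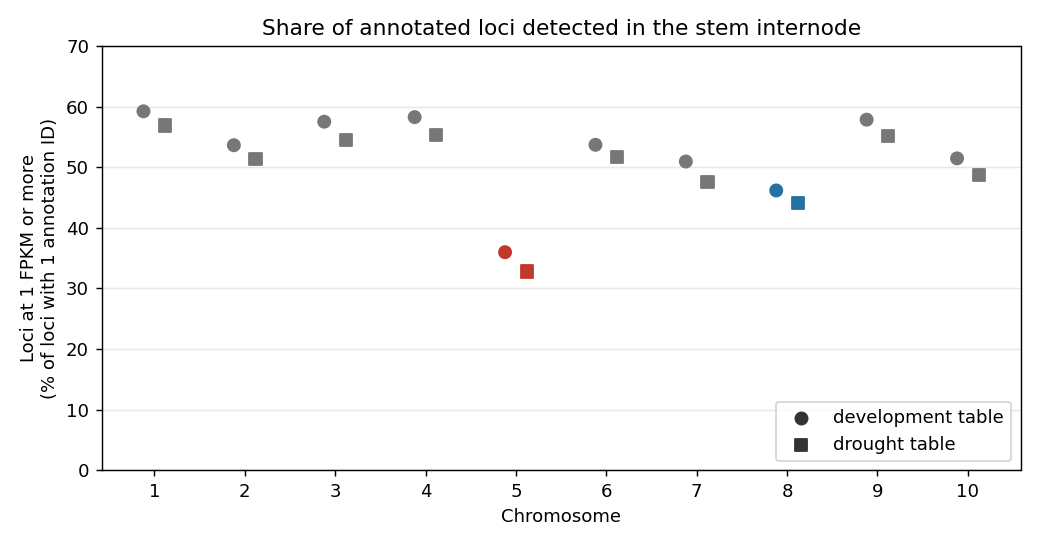
Percentage of loci with 1 annotation ID that reached 1 FPKM or more in at least 1 column (y axis) on each chromosome (x axis), over development (circles) and over drought (squares). Chromosome 5 (red, 36.0% and 32.8%) and chromosome 8 (blue, 46.2% and 44.1%) lie below all 8 other chromosomes (grey, 47.5% to 59.2%).

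The shortfall was seen in each single column. At floral initiation 31.1% of the chromosome 5 loci and 41.6% of the chromosome 8 loci were at 1 FPKM or more, and no other chromosome was under 45.4%. At D3 the values were 30.2%, 40.9% and 43.9%. Loci listed at exactly 0 in every column of the development table made up 37.9% of chromosome 5 (846 loci) and 28.3% of chromosome 8 (523 loci), against 16.4% to 22.1% elsewhere. Across the tables, 1393 of 2216 chromosome 5 IDs listed in both stayed under 1 FPKM in all 7 columns (62.9%), as did 950 of 1826 on chromosome 8 (52.0%) and 42.1% on the other 8 chromosomes. The pair held the smallest parts of the summed FPKM. Over development chromosome 5 had 7.11% of the single-ID loci but between 3.65% (booting) and 4.09% (floral initiation) of the sum. Over drought it had 7.16% of the loci and between 3.53% (D3) and 3.70% (D1) of the sum. Chromosome 8 had the fewest loci of any chromosome. Over development it had 5.88% of the loci, and between 4.94% (booting) and 5.87% (floral initiation) of the sum. Over drought it had 5.93% of the loci, and between 4.89% (D2) and 5.32% (D3) of the sum. A part of the sum below the share of loci was not particular to the pair. Over development chromosome 6 had 8.67% of the loci and 6.50% to 6.99% of the sum.

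Members that were detected also stood at slightly lower levels. The median of the highest FPKM per locus over the stages was 11.4 on chromosome 5 and 12.1 on chromosome 8, against 12.9 to 16.0 on the other chromosomes. Over the drought levels the medians were 11.4 and 10.6, against 12.5 to 15.2. At least 100 FPKM was reached by 7.59% and 7.03% of members over development, against 8.56% to 12.6% elsewhere. The range in level was still wide. On chromosome 8, Sobic.008G185900 had 3258, 1530, 5995 and 6532 FPKM from floral initiation to soft dough and 3666, 2559 and 5186 from D1 to D3. Its printed range differs between the tables (62029744 to 62031523, and 62029744 to 62049869 for drought), so the locus models are not the same. The drought range is shared by 2 loci, so fragments may have been divided between them. Sobic.008G136000 (56470317 to 56474560) went the other way over development, from 5656 through 4233 and 3076 to 2007 FPKM, and had 2510, 1564 and 1593 in the drought columns. In the development table its range is also shared by 2 loci. Sobic.008G049200 (4848186 to 4849152) was near 200 FPKM at floral initiation (208) and booting (214), then at 1768 and 978.

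The highest FPKM on chromosome 5 (2687 over development, 2737 over drought) was well under that on chromosome 8 (6532 and 5186). Sobic.005G228700 (71599141 to 71600181) had 1650, 1789, 2687 and 1747 FPKM over the stages and 2737, 1922 and 1653 over D1, D2 and D3. Sobic.005G050200 (4770079 to 4771218) had 657, 848, 1711 and 918, then 1576, 842 and 1542. Both were highest at milky stage among the stages and at D1 among the drought levels. Sobic.005G096101 (15112038 to 15113474) fell along the stages, with 1187, 848, 368 and 273 FPKM, and stood at 634, 380 and 395 in the drought columns. Sobic.005G055000 (5565095 to 5567379) varied less, between 428 and 633 FPKM over development and between 707 and 932 over drought. The third highest of chromosome 8 under drought, Sobic.008G161700 (59567395 to 59571203), had 1278, 1767 and 1495 FPKM there and between 208 and 317 in the field stages; the tables were normalized separately.

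Toward the ends of both chromosomes, where most of their loci lie, the detected share was below that of the other chromosomes. On chromosome 5 the share in the development table was 35.9% within 5 Mb of the nearest end, 35.0% at 5 to 10 Mb, 34.5% at 10 to 15 Mb, 35.5% at 15 to 20 Mb and 44.2% further in, where 154 loci lie. Chromosome 8 had 46.3%, 46.6%, 46.7%, 43.7% and 42.9% in the same bins. On the other 8 chromosomes the share fell inwards, from 57.6% at the ends to 48.3% beyond 20 Mb. The gap to chromosome 5 was therefore wider toward the ends than in the interior. In windows of 5 Mb with at least 50 loci, all 9 windows of chromosome 5 were under 50% and 8 of them under 40%. The lowest was the end of the second arm, from 70 Mb on, with 44 of 165 loci (26.7%), and the highest the opposite end, from 0 to 5 Mb, with 209 of 473 (44.2%). Of the 80 windows of the other 8 chromosomes, 25 were under 50% and 6 under 40%. Chromosome 8 had 7 of 8 windows under 50% and 0 under 40%, and its window from 50 to 55 Mb was at 51.0%. Interior windows with fewer loci varied more, up to 10 of 16 (62.5%) at 40 to 45 Mb on chromosome 5 and 11 of 19 (57.9%) at 20 to 25 Mb on chromosome 8.

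**Figure D2:**
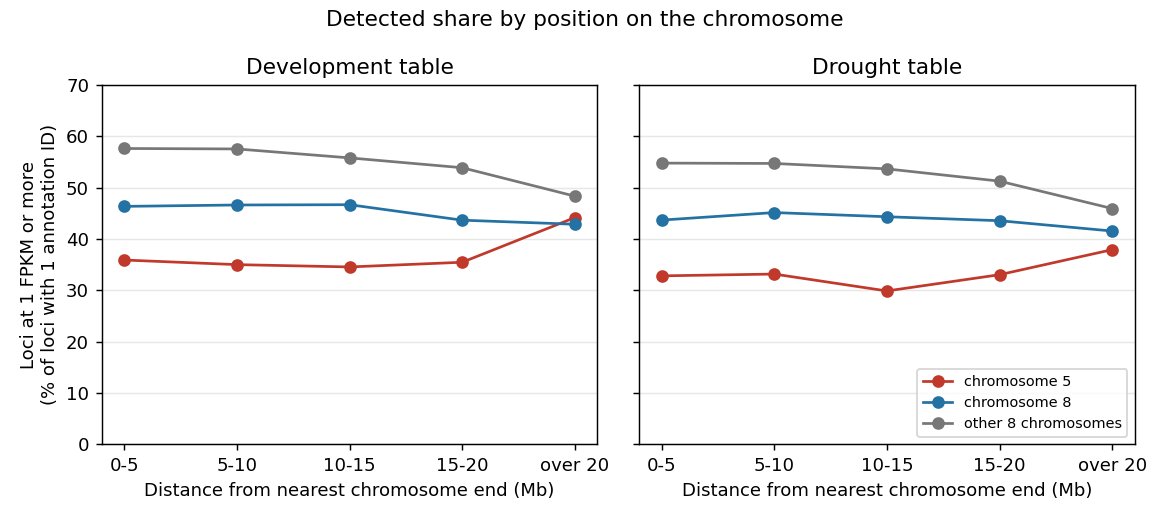
Percentage of single-ID loci at 1 FPKM or more (y axis) by distance from the nearest chromosome end in Mb (x axis), for chromosome 5, chromosome 8 and the other 8 chromosomes together, in each table. In the development table chromosome 5 runs from 34.5% to 44.2% and chromosome 8 from 42.9% to 46.7%, while the other chromosomes decline from 57.6% at the ends to 48.3% in the interior.

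Some of the loci under the threshold on chromosome 5 stood in long stretches of single-ID loci. Rows with several IDs or none were left out before neighbours were joined, so detected rows of those kinds may lie inside a run. With 1 locus counted per printed range, chromosome 5 had 24 runs of 10 or more neighbouring loci that all stayed under 1 FPKM over development, and they held 322 of 2094 ranges (15.4%). The other 8 chromosomes had 1 to 10 such runs each, holding 0.264% to 3.65% of their ranges. Chromosome 8 was within that spread, with 4 runs and 3.498%. In the drought table the runs held 21.7% on chromosome 5, 3.24% on chromosome 8 and 0.959% to 5.46% elsewhere. The longest run of the development table on chromosome 5 covered 28 loci from 67366388 to 67524233, where 24 were listed at 0 and none exceeded 0.0694 FPKM. In the drought table a run of 34 loci from 61058761 to 61749836 reached no more than 0.459 FPKM. The longest on chromosome 8 had 20 loci in both tables, from 58995094 to 59184476. How many such runs a scattered order of the same loci would give was not tested.

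The gap was also present among loci of like length and like ID. Printed ranges of 501 to 1000 bp made up 14.8% of the chromosome 5 loci, 9.47% of those on chromosome 8 and 8.81% elsewhere, and short loci were seldom detected on any chromosome. Within that length the detected shares were 9.06%, 14.9% and 20.2%. Among loci of 4001 to 8000 bp they were 59.6%, 65.2% and 74.2%. In all 6 length classes of both tables chromosome 5 was below chromosome 8, and chromosome 8 below the other 8 as a pool. IDs that do not end in 00 made up 20.2% of chromosome 5, 18.8% of chromosome 8 and 14.2% of the rest in the development table. Among IDs that end in 00 the detected shares were 40.4%, 52.6% and 61.3%. Among the other IDs they were 18.4%, 18.2% and 23.1%.

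Once detected, members varied over the columns about as often as loci elsewhere. A span of at least 1 in log2(FPKM + 1) over the stages was seen at 47.0% of members on chromosome 5 and 45.8% on chromosome 8, where all loci gave 46.9% and the other 8 chromosomes 44.6% to 48.9%. Over the drought levels it was seen at 18.3% and 15.5%, with 17.4% over all loci and 15.8% to 19.1% elsewhere. All 4 stages were at 1 FPKM or more for 599 members of chromosome 5 (74.5%), below the 78.5% to 81.1% of the other chromosomes, and for 672 of chromosome 8 (78.8%). All 3 drought levels were for 86.7% and 86.5%, below the 87.9% to 90.2% elsewhere. The rest passed the threshold through some stages only, and such a locus tends to differ between columns by the way it was chosen. A locus counted as measured where the higher of the compared columns was at 1 FPKM or more, and as called when the difference in log2(FPKM + 1) was 1 or more, a scale that understates the change of low loci.

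Booting against floral initiation, the step in which the stem carries the panicle up inside the flag leaf sheath, had 55 members higher and 78 lower of 1516 measured. Higher members were 3.59% of those measured on chromosome 5 and 3.66% on chromosome 8, under all 8 others (4.66% to 6.26%), where all loci gave 5.40%. Lower members were 4.14% and 6.06%, against 2.47% to 5.61% on the others and 3.63% over all loci. Of the called members 41.4% were higher, against 61.7% on the other 8 chromosomes, though chromosome 7 (45.4%) lay below chromosome 5 (46.4%). Columns rescaled to the same sum lowered both values, to 29.5% (43 higher, 103 lower) and 48.4%, and moved the median log2 difference of the other 8 chromosomes from 0.04 to -0.10 and that of the members from -0.04 to -0.17. Titles of the floral initiation libraries end in another digit than those of the later stages. The labels do not explain it, so in both comparisons with floral initiation that digit and the stage cannot be told apart.

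Sobic.005G140001 (59525286 to 59527098) had 0.370, 285, 0.102 and 0.180 FPKM along the stages. It was thus high at booting alone among the stages, and in the pots, also harvested at booting, it stood at 118, 8.39 and 109 FPKM from D1 to D3. Sobic.008G035400 (3253016 to 3257943) had a similar course, with 3.71, 246, 4.77 and 2.09 FPKM over the stages and 66.7, 20.1 and 165 over drought. Its range is shared with another locus, so fragments may have been divided between them, and 3 loci share that of the next one in the development table. Sobic.008G082400 (15298415 to 15300054) was high at both ends of the series, with 133, 8.58, 10.4 and 280 FPKM, a log2 difference of -3.80 at the first step. Sobic.005G055150 (5569254 to 5572703) had 13.0 FPKM at floral initiation, at most 0.167 at the later stages, and 0.946, 0.182 and 11.2 over drought.

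Milky stage against booting, the step from the closed panicle to the first grain filling, changed more members than any other step between adjacent columns, 176 higher and 193 lower of 1559 measured. Higher members made up 12.02% on chromosome 5 and 10.6% on chromosome 8 (all loci 10.2%), and lower members 13.0% and 11.9% (all loci 14.2%). Called members were higher in 48.1% and 47.3% of cases, both above the 36.7% to 46.2% of the other chromosomes. That order held in 4 of 10 settings. Sobic.008G148400 (58172477 to 58176044) rose from 0.964 to 57.4 FPKM and stood at 130 to 187 in the pots. Sobic.005G186100 (67076368 to 67078233) rose from 2.76 to 93.9 and reached 217 at soft dough. The largest falls were Sobic.005G140001 and Sobic.005G015200 (1364608 to 1368966), which had 67.5 and 79.5 FPKM at the early stages and 0.370 and 0.659 at the late ones.

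Runs of 3 or more neighbouring members called in the same direction were found at this step, as on all the other chromosomes, where chromosome 1 had 12 runs of falls with 38 loci and the longest run, on chromosome 2, held 8. Chromosome 5 had 2 runs of rises (7 loci) and 3 of falls (9 loci), and chromosome 8 had 2 of rises (7 loci) and 1 of falls (4 loci). Neighbouring or adjacent members, here and below, are next to each other among members, and other annotated loci may lie between them. On chromosome 5, 4 adjacent members from 18442511 to 18479758, among them Sobic.005G103700, rose from a median of 14.7 to 65.4 FPKM. On chromosome 8, 4 from 4828616 to 4896451, among them Sobic.008G049200, rose from a median of 5.10 to 12.6 FPKM, and 4 from 6826364 to 7159946 fell from 18.6 to 5.01.

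Soft dough against milky stage had 105 members higher and 56 lower of 1547 measured, or 6.79% and 3.62%, close to the 7.27% and 3.99% over all loci. Direction was also within the spread of the other chromosomes, with 65.1% of calls higher on chromosome 5 and 65.4% on chromosome 8, against 59.4% to 72.0%. Sobic.008G077800 (12100034 to 12105169) was at 1.31, 0.227 and 0.750 FPKM in the first stages and at 103 at soft dough, and it also stood at 17.9, 45.9 and 74.5 FPKM from D1 to D3. Sobic.008G127250 (55202616 to 55221036) was listed at 0 for floral initiation and booting and in all drought columns, and had 0.0549 FPKM in the third stage and 29.4 in the last. Sobic.005G200600 (68618914 to 68619813) fell from 9.67 to 0.123 FPKM, and Sobic.005G046700 (4444213 to 4445054) from 54.2 to 3.62.

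Over the whole series of stages, soft dough against floral initiation, 230 members were higher and 237 lower of 1604 measured, 14.3% and 14.8%, where all loci gave 14.9% and 13.9%. Here the chromosomes of the pair parted. Called members were higher in 54.1% of cases on chromosome 5 (133 higher, 113 lower) and 43.9% on chromosome 8 (97 higher, 124 lower), both inside the 41.4% to 58.8% of the others. Steady rises over all 4 stages were 5.22% of members on chromosome 5 and 2.81% on chromosome 8, and steady falls 4.85% and 6.68%. On the other chromosomes rises ran from 2.23% to 5.11% and falls from 4.48% to 6.07%, so rises on chromosome 5 and falls on chromosome 8 lay just above that spread. The largest changes were those of Sobic.008G077800 and Sobic.005G186100 upwards, and of Sobic.005G046700, at 969, 529, 54.2 and 3.62 FPKM along the stages, and Sobic.005G015200 downwards. Runs of 3 or more were found on every chromosome in this comparison, with 17 of rises and 9 of falls on chromosome 1. Chromosome 5 had 4 of rises and 4 of falls, and chromosome 8 had 1 and 3. On chromosome 8, 4 adjacent members from 59599335 to 59669306 fell from a median of 11.01 to 0.508 FPKM, and 4 from 52741408 to 52985789 rose from 1.75 to 11.1.

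**Figure D3:**
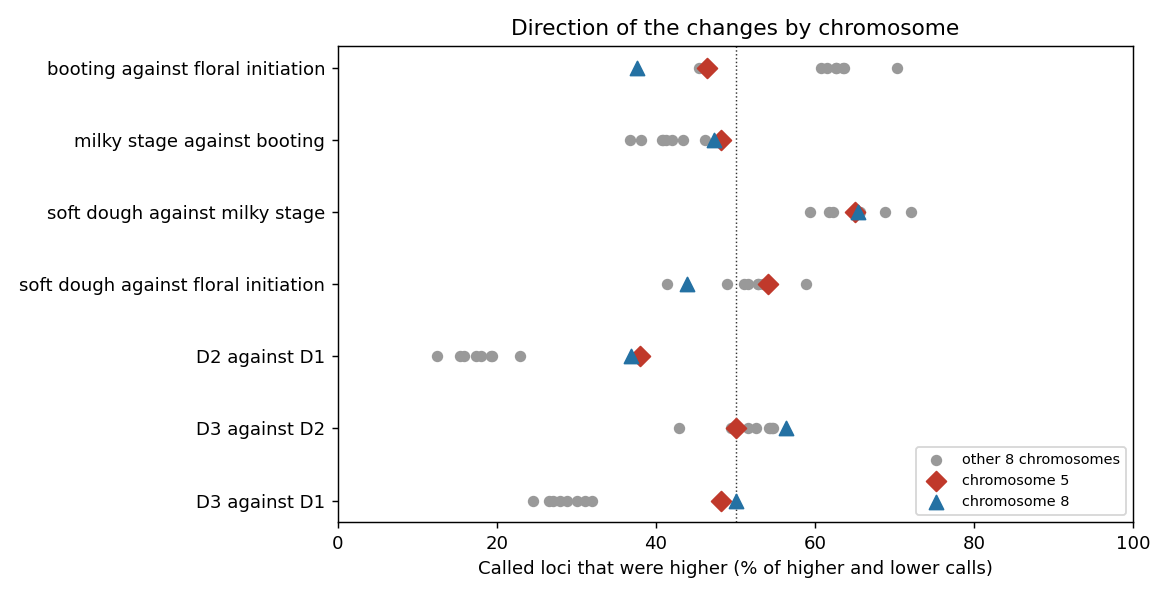
Percentage of called loci that were higher in the group named first (x axis) for each of the 7 comparisons (y axis); red diamonds are chromosome 5, blue triangles chromosome 8 and grey circles the other 8 chromosomes, and the dotted line marks 50%. In D2 against D1 and D3 against D1 both symbols lie to the right of all grey circles, at 38.0% and 36.8% against at most 22.9%, and at 48.2% and 50% against at most 31.9%.

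In the direction of calls, the pair stood apart from the other chromosomes most clearly in D2 against D1 and D3 against D1. Both use the same pooled D1 column, and whether drying or that column set the pair apart was not tested. In D2 against D1, 33 members were higher and 55 lower of 1517 measured. Higher members were 2.64% on chromosome 5 and 1.76% on chromosome 8, above all 8 others (0.776% to 1.47%), with 1.18% over all loci. Lower members were 4.31% and 3.01%, with 4.15% to 5.54% on the others and 5.00% over all loci, so only chromosome 8 lay below that spread. Calls were therefore higher in 38.0% (19 of 50) and 36.8% (14 of 38) of cases, against 12.5% to 22.9% on the other chromosomes. Sobic.005G169200 (64809823 to 64811829) had 0.846, 29.3 and 4.84 FPKM from D1 to D3, and Sobic.008G146700 (57941394 to 57943066) had 0.444, 17.5 and 17.7. Neither exceeded 1.87 FPKM at any field stage. The largest falls were Sobic.005G140001 and Sobic.005G086400 (11963279 to 11964212), with 42.7, 2.71 and 9.38 FPKM. On chromosome 5, 3 adjacent members from 53367770 to 53727995 fell from a median of 27.8 to 3.98 FPKM. Such runs were also found on chromosomes 1, 2 and 9, with 3 runs of falls on chromosome 9.

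D3 against D2 showed no such gap, with 85 members higher and 76 lower of 1497 measured, 5.68% and 5.08%, where all loci gave 5.61% and 5.17%. Called members were higher in 50% of cases on chromosome 5 and 56.3% on chromosome 8, with 42.9% to 54.7% on the others. Sobic.005G103700 (18457606 to 18458347) rose from 2.43 to 39.2 FPKM, and its level at D1 had been 4.21. Sobic.005G140001 returned from 8.39 to 109. Sobic.005G046700 fell from 82.6 to 3.88 FPKM, a level near its soft dough value. Sobic.008G081150 (14306874 to 14311314) fell from 53.5 to 3.93, while its field stages ranged from 29.2 to 91.5 FPKM. On chromosome 5, 3 adjacent members from 1462814 to 1504737 fell from a median of 115 to 26.4 FPKM. Such runs were also found on chromosomes 1, 3, 6, 7 and 10, and the longest, on chromosome 6, held 7 loci.

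From the mildest to the most severe drying, D3 against D1, rises and falls were balanced on the pair and not elsewhere: 83 members were higher and 86 lower of 1535 measured, against 487 higher and 1218 lower of 14395 on the other 8 chromosomes. Higher members were 5.50% on chromosome 5 and 5.32% on chromosome 8, above all others (2.56% to 3.76%), with 3.58% over all loci. Lower members were 5.91% and 5.32%, below all others (7.43% to 9.28%), with 8.19% over all loci. In total, 11.4% and 10.6% of members were called, inside the 10.5% to 12.7% elsewhere. This comparison shares the D1 column with D2 against D1, so their results are not independent. Sobic.005G216000 (70180263 to 70181103) rose from 3.12 through 31.6 to 168 FPKM, the largest rise, and its field levels climbed from 0.210 at floral initiation to 32.8 at soft dough, with a listed 0 at booting. Sobic.008G146700 was the other large rise. Sobic.005G116601 (51291861 to 51293812 in the drought table) fell from 16.9 through 5.48 to 0.681 FPKM, and Sobic.008G081150 was 49.8 at D1.

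The balance of rises and falls was spread over both chromosomes. In D3 against D1 the share of calls that were higher was 45% and 51.2% in the first and the second stretch of chromosome 5, divided at the middle of the chromosome, and 45.8% and 55.3% in those of chromosome 8. The 16 such stretches of the other chromosomes ran from 23.3% to 38.1%. In D2 against D1 the stretches overlapped with the others: the pair had 36.4% and 39.3% (chromosome 5) and 33.3% and 41.2% (chromosome 8), and the others reached 40% on 10 calls in the first stretch of chromosome 6. No 3 neighbouring members of the pair were called together in the same direction in D3 against D1. Each of the other 8 chromosomes had 2 to 7 such runs of falls, and only chromosomes 2 and 6 had a run of rises. By level in D3 against D1, members with a highest drought FPKM of 5 to 20 were higher in 6.79% (chromosome 5) and 8.07% (chromosome 8) of cases, against 3.55% elsewhere. At 20 to 100 FPKM the values were 5.10% and 4.95% against 3.02%. Below 5 FPKM they were 2.83% and 2.11% against 3.32%, so the excess of rises was absent among the lowest members, whereas falls were rarer there too, at 5.66% and 4.64% against 8.29%. From 100 FPKM on, rises were at 11.1% (6 of 54) and 6.25% (4 of 64) against 4.11%, but falls were not rarer, at 14.8% (8 loci) and 10.9% (7 loci) against 10.8%. The median log2 difference of the members was 0.06, against 0.00 on the other chromosomes.

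**Figure D4:**
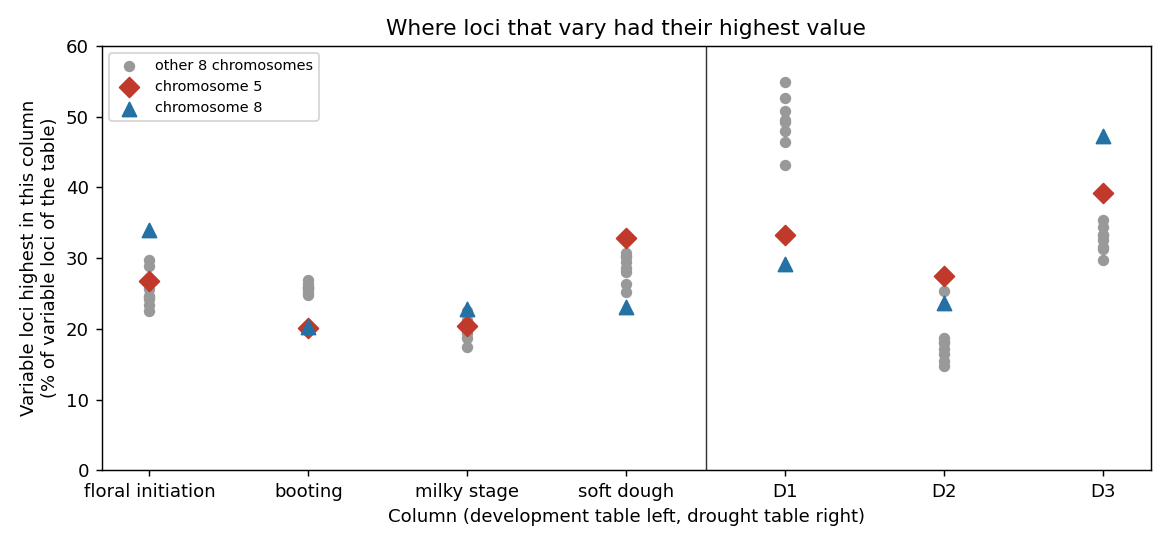
Percentage of variable loci (a span of at least 1 in log2(FPKM + 1)) whose highest value fell in each column (x axis), by chromosome; symbols and colours mark chromosome 5, chromosome 8 and the other 8. At D1 the pair stands at 33.3% and 29.1%, under the 43.2% to 54.9% of the others, and at booting at 20.1% and 20.2%, under 24.8% to 26.8%.

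Seen by the column of the highest value, the pair held a smaller share of loci that peaked at D1 and at booting. Of 262 members that varied over drought, 31.3% had their highest value at D1, 25.6% had it at D2 and 43.1% at D3, where the 2540 variable loci of the other chromosomes gave 48.9%, 18.0% and 33.1%. At D2 chromosome 5 had 27.4% and chromosome 8 23.6%, against 14.8% to 25.3% on the others, so only chromosome 5 lay above them. At D3 the values were 39.3% and 47.2%, against 29.7% to 35.4%. Steady falls from D1 to D3 were 3.47% of members (54 loci) and 6.27% of the others, and steady rises 2.89% (45 loci) and 1.43%. Over development, 769 members varied, and from floral initiation to soft dough 30.4%, 20.2%, 21.6% and 27.8% had their highest value there, against 25.0%, 25.9%, 20.4% and 28.7%. The chromosomes of the pair parted at soft dough, with 32.8% on chromosome 5 and 23.0% on chromosome 8, against 25.2% to 30.7% on the others. At floral initiation they had 26.7% and 34.0%, against 22.5% to 29.8%, so only chromosome 8 lay above the others. Among loci with the same ID and range in both tables, 33 members were called higher in booting against floral initiation, and 5 of them (15.2%) were also called lower in D3 against D1, or 10.4% of the 48 such members. These were 1 of 15 on chromosome 5 (6.67%) and 4 of 18 on chromosome 8 (22.2%). On the other chromosomes the overlap was 177 loci, 33.4% of the first kind and 23.2% of the second. Lower calls in D3 against D1 were themselves rarer among members, 48 of 1007 against 762 of 10251, and the tables share no column.

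**Figure D5:**
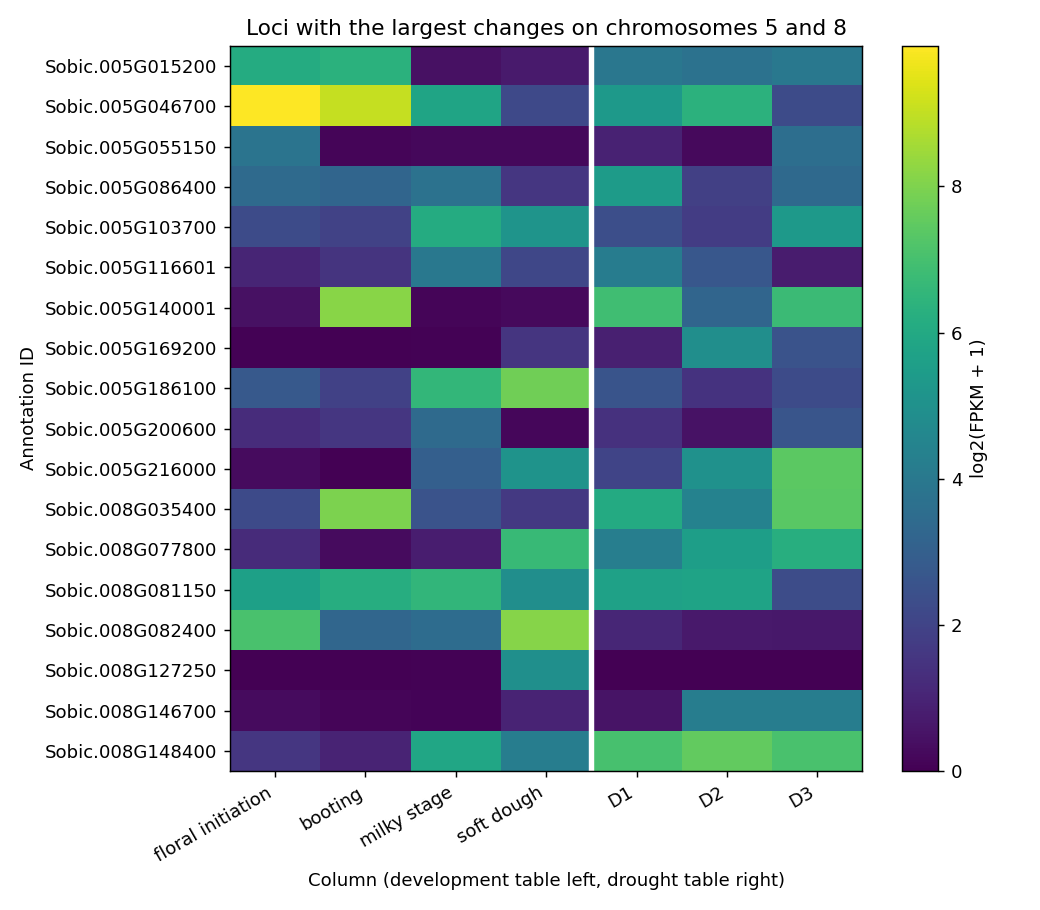
Level in log2(FPKM + 1), as colour, of the 18 loci with the largest changes on chromosomes 5 and 8 (rows) in the 4 field stages and the 3 drought levels (columns, from separately normalized tables). Sobic.005G140001 and Sobic.008G035400 are bright at booting among the stages, and Sobic.005G216000 brightens from D1 to D3.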

How the data were processed

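The authors deposited FPKM values in a development and a drought table, each with its own locus models and 1 pooled column per group, per the file headers. Cuffdiff, HISAT2 2.0.5, Bowtie2 2.2.9 and cutadapt 1.8.1 were used, per the submitters' processing notes. The sources used here give neither their roles nor the genome build, the annotation release or the strand setting, so overlapping loci may share fragments. Library totals were not used here, so the depth is unknown. Coordinates are as printed in the files.

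Python 3.11.15 with pandas 2.3.3 was used. Rows with several IDs, with none, or on scaffolds were left out. Log2 values used a pseudocount of 1. Named loci were, per comparison, the 2 largest rises and 2 largest falls among members with 5 FPKM or more in the higher column, and the 3 highest loci per chromosome and table; per threshold side and table the nearest 2 are given. Runs joined neighbouring loci, 1 per printed range, among single-ID loci or, for called loci, among detected loci. Rows left out do not break a run. Distances used the last printed end on a chromosome. The calling and the run finder were tested on simulated data. Members and lists were chosen with earlier results of these data known. The planned comparison of copies on chromosomes 5 and 8 needs protein sequences and was not run.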

Additional observations from a re-analysis of the deposited data

How the results depend on the processing

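Depth and replicate spread are unknown, and loci are not independent. No paired analysis was possible because each group has 1 pooled column; for the same reason no replicate was left out. In all 10 settings that bear on calls (the reported one and 9 others, of which a mean of at least 1 FPKM was chosen after seeing the data), both chromosomes had a larger share of higher calls than each of the other 8 in D2 against D1 and D3 against D1. For D3 against D1 that share ran from 42.2% to 52.4% on chromosome 5 and from 46.2% to 55.9% on chromosome 8. Both lay below the other 8 at booting against floral initiation in 2 of the 10. The split by setting and by stretch of chromosome was also chosen after seeing the data.

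With a pseudocount of 5, members higher and lower became 23 and 27 (booting against floral initiation), 73 and 102 (milky stage against booting), 46 and 24 (soft dough against milky stage), 114 and 125 (soft dough against floral initiation), 9 and 18 (D2 against D1), 44 and 36 (D3 against D2) and 41 and 43 (D3 against D1), and 23.2% of variable members were highest at booting. A larger pseudocount shrinks every difference by construction. With 0.1, they became 87 and 131 (booting against floral initiation), 162 and 95 (soft dough against milky stage) and 52 and 101 (D2 against D1), with 136 lower at D3 against D1. A filter at 5 FPKM gave 20 higher and 36 lower in D2 against D1 and median highest levels of 20.7 and 19.5 FPKM (development, drought). Without a filter the calls are the same by construction, since a call already needs 1 FPKM; it gave medians of 0.191 and 0.139 FPKM, since undetected loci enter, and the called percentage of members minus that of the other 8 chromosomes became -3.97 points (milky stage against booting), -4.15 (soft dough against floral initiation) and -1.66 (D3 against D2). Rescaling to one sum put 35.8%, 14.2%, 18.0% and 31.9% of variable members highest at the successive stages from floral initiation to soft dough, and 31.4% at D2. Without the 50 most abundant loci, 35.9% were highest at floral initiation and 14.6% at booting; for both, the cause was not tested. Within 10 Mb of the ends, fewer loci entered: 32 members were higher at booting against floral initiation, 116 at milky stage against booting and 150 at soft dough against floral initiation, 36 were lower at D2 against D1, and 18.7% of variable members were highest at milky stage. A threshold of 0.5 FPKM detected 40.1% (chromosome 5) and 50.8% (chromosome 8) over development and 37.3% and 48.3% over drought, and one of 5 FPKM 24.6%, 33.1%, 23.0% and 30.8%. A mean of at least 1 FPKM gave 32.9%, 42.3%, 30.6% and 41.4%, with medians of 13.3 and 12.3 FPKM. Median-of-ratios factors and 1 locus per range left every count within 1.5 times and every percentage within its interval. None of the 28 log2 differences of named loci changed sign or fell under 1, but these were picked as the largest.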

Other observations

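Rows outside the single-ID loci gave a further view of both chromosomes. Loci with several IDs were detected at 80.5% on chromosome 5 (70 of 87) and 87.7% on chromosome 8 (71 of 81) over development, where the other 8 chromosomes ran from 86.8% to 95.6%. Over drought the shares were 75.6% and 88.5%, against 85.0% to 93.7%. Among loci without an ID, which the development table lists, 144 of 250 were at 1 FPKM or more on chromosome 5 (57.6%). On chromosome 8 it was 98 of 160 (61.3%), and both lay inside the 54.3% to 66.7% of the others. Such rows may be listed only where fragments were found, which the sources used here do not say. Their share is therefore not a like measure to that of annotated loci. Loci without an ID made up 9.72% of all rows on chromosome 5 and 7.66% on chromosome 8, more than on any other chromosome (4.51% to 7.01%).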
